A study of Homo sapiens with 9 samples.

Results

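The 9 genes described here encode adhesion molecules that endothelial cells show to leukocytes: SELP, SELE, ICAM1, ICAM2, VCAM1, PECAM1, CD34, ALCAM and MCAM. They were picked by symbol, as members of this functional group, from the 28514 gene symbols of the count table, and all 9 passed the filter on low counts that left 13802 genes for testing. RNA came from CI-huVEC, an immortalized line derived from human umbilical vein endothelial cells, at passage 31. The first group was 3 clonal lines with a homozygous knockout of CCM3 (clones 21, 22 and 23), made by CRISPR/Cas9 editing in exon 3 of the gene and grown on fibronectin at 5 µg/cm2 for 48 h. The second group was the same 3 knockout clones with no treatment. The third group was 3 wild-type CI-huVEC lines with no treatment, which the titles number 1, 2 and 3. CCM3, listed in the files as PDCD10, is a gene of familial cerebral cavernous malformation, and the comparisons ask what its loss did to endothelial mRNA and what fibronectin, a matrix protein, did on top of it. Below, KO stands for the untreated knockout clones, KO on fibronectin for the coated ones and WT for wild-type.

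Leukocytes leave the blood in steps. Selectins on activated endothelium catch passing leukocytes and let them roll, members of the immunoglobulin superfamily such as ICAM-1 and VCAM-1 then bind leukocyte integrins and hold the cells, and PECAM-1 at the junctions takes part in their passage between endothelial cells. P-selectin is held ready in Weibel-Palade bodies, the storage granules of endothelium, whereas E-selectin and VCAM-1 are scarce in resting endothelium and are made after cytokines such as TNF or interleukin-1 act through NF-kB.

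Every library had 24406001 to 33971610 counts. PDCD10 had 1052, 852 and 1220 counts in KO on fibronectin, 1105, 978 and 1120 in KO, and 1252, 1439 and 1617 in WT. Its level was lower in all 6 knockout libraries than in WT (KO against WT, log2 fold change -0.36, adjusted p = 0.00186), and a count over the whole gene does not read the edited site. The knockout lines are clones. The labels' clone field holds the same entry for every sample, so it does not tell whether the WT lines are clones too. Clonal origin and genotype therefore cannot be told apart. The labels do not say whether the WT lines were separate cultures, so p-values measure the spread between these samples. WT cells on fibronectin are not analysed here. The defining endothelial markers were present in all libraries: the summed level of 10 endothelial genes was 5597 to 6440 CPM in KO on fibronectin, 5298 to 5814 CPM in KO and 2353 to 2687 CPM in WT. Most of the difference between the knockout and WT sums was VWF. Its mean was 2974 CPM in KO on fibronectin, 2686 CPM in KO and 325 CPM in WT. CPM is the count per library size scaled by TMM, the usual count-per-million unit.

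The promoters of 4 members are shown because these genes hold both ends of the results: SELP and CD34 rose most, and SELE and VCAM1 had the lowest level per gene length in the knockout libraries. Each stretch runs from 250 bases before to 50 after the RefSeq start on GRCh38.p14, 5′ to 3′ on the gene's own strand. SELP lies at chr1:169630075-169630374 on the minus strand, SELE at chr1:169734030-169734329 on the minus strand, VCAM1 at chr1:100719492-100719791 on the plus strand and CD34 at chr1:207911076-207911375 on the minus strand. Capitals mark matches, on either strand, to the loose NF-kB consensus (GGG, any 5 bases and CC) and to TATAAA, the TATA box.
SELP: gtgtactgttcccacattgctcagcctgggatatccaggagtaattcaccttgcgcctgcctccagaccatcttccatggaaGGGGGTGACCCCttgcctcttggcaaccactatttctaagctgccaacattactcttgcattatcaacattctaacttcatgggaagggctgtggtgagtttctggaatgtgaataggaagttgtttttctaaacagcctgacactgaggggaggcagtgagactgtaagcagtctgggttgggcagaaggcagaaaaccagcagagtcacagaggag
SELE: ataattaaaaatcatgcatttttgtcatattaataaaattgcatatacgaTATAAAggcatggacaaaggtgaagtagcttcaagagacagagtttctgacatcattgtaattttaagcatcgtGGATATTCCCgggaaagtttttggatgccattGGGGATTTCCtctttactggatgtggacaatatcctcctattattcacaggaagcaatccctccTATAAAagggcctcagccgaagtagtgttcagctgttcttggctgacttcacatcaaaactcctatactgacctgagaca
VCAM1: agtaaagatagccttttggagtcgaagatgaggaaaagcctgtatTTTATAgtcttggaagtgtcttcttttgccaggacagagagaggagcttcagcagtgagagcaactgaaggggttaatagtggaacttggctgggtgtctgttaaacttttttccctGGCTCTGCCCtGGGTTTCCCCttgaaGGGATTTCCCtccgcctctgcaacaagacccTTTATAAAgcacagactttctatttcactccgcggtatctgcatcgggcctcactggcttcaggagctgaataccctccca
CD34: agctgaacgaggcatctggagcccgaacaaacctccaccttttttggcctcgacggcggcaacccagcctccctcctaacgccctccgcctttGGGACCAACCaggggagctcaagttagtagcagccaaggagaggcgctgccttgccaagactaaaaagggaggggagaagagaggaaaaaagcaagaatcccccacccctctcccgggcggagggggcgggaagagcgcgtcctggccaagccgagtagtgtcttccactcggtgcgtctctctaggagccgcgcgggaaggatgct
The capitals in SELP are a single run in which 5 matches to the loose NF-kB consensus overlap each other and a match to CACCC, the KLF and SP motif. VCAM1 held a pair of close matches, GGGTTTCCCC at -77 to -68 and GGGATTTCCC at -62 to -53, counted from the start. SELE held GGGGATTTCC at -94 to -85, which also fits the stricter NF-kB form (GGG, any 2 bases and TTTCC), and CD34 held GGGACCAACC at -157 to -148.

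These matches differ in how common they are. The loose NF-kB consensus occurs in 58.7% of 35116 RefSeq promoters of the same length, and it occurred in all 7 members that had an entry. The stricter form occurs in 1.91% of them, and among the 7 members it occurred in SELE. The VCAM1 match GGGATTTCCC also holds GGG and TTTCC, but closer together than this form asks for, so it was not counted. TATAAA occurs in 11.5% and was found in SELE, ICAM1 and VCAM1, and CACCC occurs in 59.9% and was found in SELP, ICAM1, VCAM1 and CD34. AGATA, the GATA motif, occurs in 24.6% and was found in VCAM1, while CCGGAA, an ETS motif, occurs in 17.2% and was found 4 times in ICAM1. TGANTCA, the AP-1 motif, occurs in 7.71% and was found in none of the 7, and GGAA, the ETS core, occurs in 95.5%. A match is a run of letters and not a measured binding site.

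Of the 9 genes 6 rose, 2 fell and 1 was not called. SELP, ICAM1, ICAM2, PECAM1, CD34 and MCAM rose, VCAM1 and ALCAM fell, and SELE did not pass the test, both in KO and in KO on fibronectin against WT. A call is an adjusted p under 0.05 in edgeR's quasi-likelihood test over all 13802 genes. In KO on fibronectin against WT 58.7% of all tested genes were called, 29% up and 29.6% down, and in KO against WT 50.1% were called, 23% up and 27% down. The median log2 fold change of the 9 members was 0.90 for KO on fibronectin and 0.61 for KO, against 0.01 and -0.03 over all tested genes. Both comparisons use the same 3 WT libraries, and KO on fibronectin differs from WT in genotype and coating at once.

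**Figure D1:**
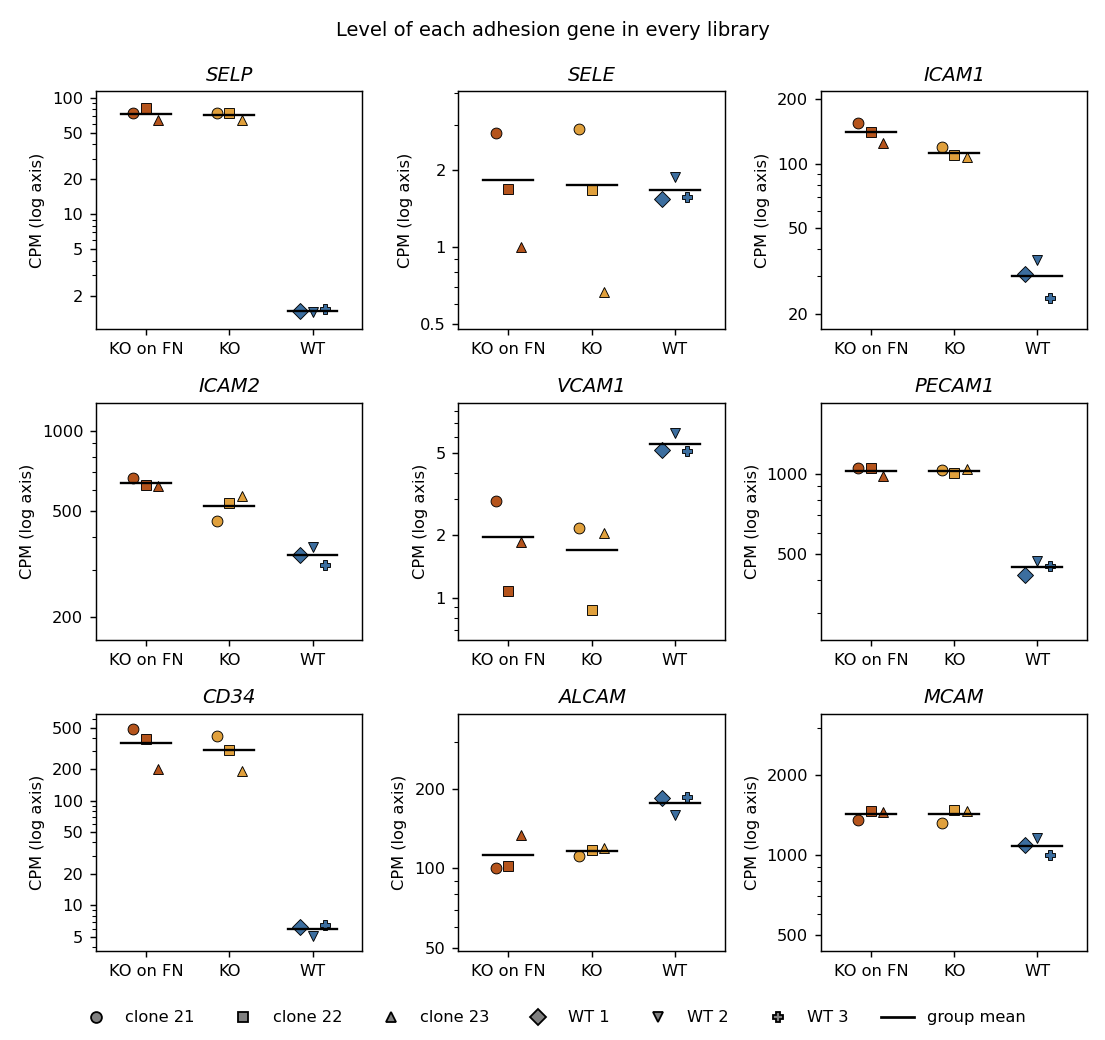
Level of each of the 9 adhesion genes in every library, in CPM on a log axis, for KO on fibronectin (KO on FN), KO and WT. Each marker is 1 library, its shape gives the clone or WT line, and the line is the mean of 3 libraries. SELP and CD34 sit far above WT in all 6 knockout libraries, VCAM1 and ALCAM sit below WT, and SELE scatters around the WT level.

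The selectins moved apart. SELP, the gene of P-selectin, which tethers leukocytes through PSGL-1, had 73.7, 81.0 and 64.6 CPM in clones 21, 22 and 23 on fibronectin, 74.7, 74.3 and 64.5 CPM in the same clones untreated, and 1.48, 1.45 and 1.54 CPM in the WT lines. All 6 knockout libraries stood far above the 3 WT libraries, and the clones lay within 1.26-fold of each other on fibronectin and 1.16-fold without it. Mean SELP was 73.1 ± 8.25 CPM in KO on fibronectin, 71.2 ± 5.76 CPM in KO and 1.49 ± 0.0491 CPM in WT (SD, n = 3 each). The log2 fold change over WT was 5.61 (SE 0.12, adjusted p = 1.50e-12) for KO on fibronectin and 5.57 (SE 0.12, adjusted p = 1.37e-12) for KO, a ratio of means of 49.1 and 47.8. The WT level rests on 40, 43 and 47 counts. By the size of its log2 fold change SELP ranked 43rd from the top of the 13802 tested genes in KO against WT, where 54 genes, 0.391% of those tested, rose by more than 5 on that scale.

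P-selectin is also a platelet protein, so the platelet markers are given beside it. The summed level of 6 platelet and megakaryocyte genes was 3.92 to 5.09 CPM in KO on fibronectin, 3.14 to 4.70 CPM in KO and 0.236 to 0.369 CPM in WT. Nearly all of it was GP6, the collagen receptor glycoprotein VI, at 4.13 ± 0.662 CPM in KO on fibronectin, 3.55 ± 0.823 CPM in KO and 0.0109 ± 0.0190 CPM in WT (SD, n = 3 each), and GP6 rose in both comparisons. GP6 passed the filter on low counts only through the knockout libraries, so it could be called only as a rise. The defining platelet genes GP9 and PPBP had 0 counts in all 9 libraries, PF4 had 2 counts and ITGA2B 19 counts over all 9. GP1BA, also on the list, had 51 counts over all 9, at 0.170 CPM in KO on fibronectin, 0.217 CPM in KO and 0.219 CPM in WT. In bulk RNA, fewer cells of a type and less RNA per cell cannot be told apart.

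SELE, the gene of E-selectin, which slows rolling leukocytes after cytokine stimulation, was a low gene in every group. It had 2.80, 1.70 and 1.01 CPM in clones 21, 22 and 23 on fibronectin, 2.91, 1.68 and 0.671 CPM in the same clones untreated, and 1.55, 1.88 and 1.58 CPM in the WT lines. Clone 21 lay above every WT library and clone 23 below every WT library with and without fibronectin, so the knockout groups straddled WT. For SELE the log2 fold change over WT was 0.12 (95% interval -0.95 to 1.19, adjusted p = 0.850) for KO on fibronectin and 0.05 (95% interval -1.03 to 1.13, adjusted p = 0.944) for KO. These intervals leave room for a 2.28-fold and a 2.18-fold higher mean. The values rest on 78, 41 and 34 counts in KO on fibronectin, 76, 46 and 20 in KO and 42, 56 and 48 in WT. In the GENCODE annotation C1orf112 overlaps SELE on the opposite strand and the long noncoding RNA gene AL021940.1 on the same strand. How the counting assigned reads shared with them is not known, which limits so low a gene.

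ICAM1 rose most among the immunoglobulin-type ligands. ICAM1, the ligand of the leukocyte integrins LFA-1 and Mac-1, had 155, 140.2 and 124 CPM in the clones on fibronectin, 119, 109 and 108 CPM in the untreated clones, and 30.6, 35.8 and 23.8 CPM in the WT lines. The 3 groups did not overlap, with KO on fibronectin highest and WT lowest. Mean ICAM1 was 139.9 ± 15.3 CPM in KO on fibronectin, 112 ± 6.29 CPM in KO and 30.1 ± 6.02 CPM in WT (SD, n = 3 each). Its log2 fold change over WT was 2.22 (SE 0.13, adjusted p = 1.13e-07) for KO on fibronectin and 1.90 (SE 0.13, adjusted p = 4.46e-07) for KO, 4.65 and 3.73 times the WT mean. In the GENCODE annotation 2 antisense genes overlap ICAM1, and since the strand setting of the counting is unknown, reads from them cannot be told apart.

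ICAM2, which endothelium carries without stimulation and which also binds LFA-1, showed the same order of groups at a smaller size. It had 663, 625 and 617 CPM in the clones on fibronectin, 456, 535 and 569 CPM in the untreated clones, and 342, 366 and 314 CPM in the WT lines. Again the 3 groups did not overlap. Over WT, ICAM2 had a log2 fold change of 0.90 (SE 0.08, adjusted p = 7.75e-07) for KO on fibronectin and 0.61 (SE 0.08, adjusted p = 3.40e-05) for KO, 1.87 and 1.53 times the WT mean. PRR29 overlaps ICAM2 on the opposite strand.

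VCAM1 went the other way from ICAM1. VCAM1, the ligand of the integrin VLA-4 on monocytes and lymphocytes, had 2.95, 1.08 and 1.86 CPM in the clones on fibronectin, 2.18, 0.875 and 2.05 CPM in the untreated clones, and 5.17, 6.26 and 5.09 CPM in the WT lines. All 6 knockout libraries lay below all 3 WT libraries. Over WT, VCAM1 had a log2 fold change of -1.47 (SE 0.33, adjusted p = 0.00261) for KO on fibronectin and -1.69 (SE 0.34, adjusted p = 0.00155) for KO, so WT was 2.81 and 3.24 times as high. The knockout values rest on 24 to 82 counts and the WT values on 140 to 186. SELE and VCAM1, both known for induction by cytokines, stayed at a few CPM in all 9 libraries, while ICAM1 rose.

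**Figure D2:**
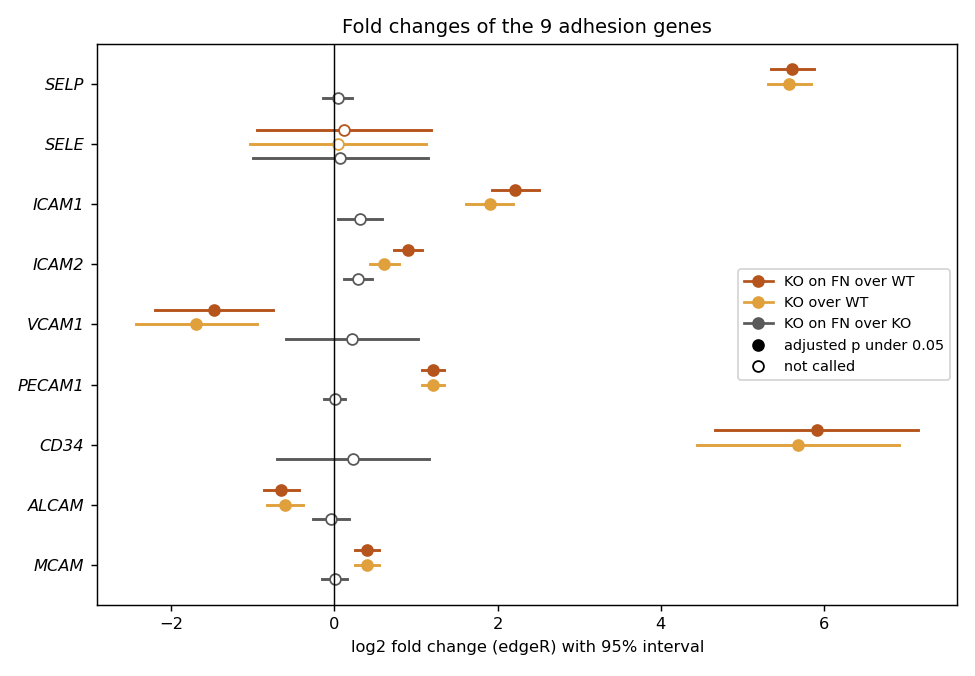
Log2 fold change of each of the 9 genes from edgeR for KO on fibronectin over WT, KO over WT and KO on fibronectin over KO. Points are estimates, lines are 95% intervals, filled points have an adjusted p under 0.05 and open points do not. SELP and CD34 stand near 5.6 and 5.7 in KO over WT, and VCAM1 and ALCAM are negative in both comparisons with WT. Every point of KO on fibronectin over KO is open, in a fit that leaves out the pairing by clone. With the clone as a block in edgeR, not drawn here, ICAM1 and ICAM2 were called up on fibronectin (adjusted p = 0.0192 and 0.0328).

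PECAM1 and CD34, which mark the endothelial surface, both rose, by very different amounts. PECAM1, which binds itself across cell junctions and carries inhibitory signalling motifs, had 1060.0, 1054 and 981 CPM in the clones on fibronectin, 1033, 1008 and 1047 CPM in the untreated clones, and 417, 471 and 451 CPM in the WT lines. The knockout libraries were tightly grouped, within 1.08-fold on fibronectin and 1.04-fold without it, and lay above all WT libraries. The log2 fold change over WT was 1.21 in both KO on fibronectin (SE 0.06, adjusted p = 2.16e-09) and KO (SE 0.06, adjusted p = 2.60e-09), each 2.31 times the WT mean. Part of the endothelial marker list rose beside it. In KO on fibronectin 7 of its 10 genes rose, 1 fell and 2 were not called, and in KO 6 rose and 4 were not called. Of all tested genes 29% rose and 29.6% fell in KO on fibronectin, and 23% rose and 27% fell in KO. VE-cadherin, encoded by CDH5, had 665 ± 69.8 CPM in KO on fibronectin, 684 ± 36.4 CPM in KO and 715 ± 40.7 CPM in WT (SD, n = 3 each) and was not called (adjusted p = 0.261 and 0.523 against WT). Whether the rise of PECAM1 goes with the marker list as a whole was not tested.

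CD34, a sialomucin of small-vessel endothelium and blood progenitors that can carry selectin-binding glycans, showed the largest ratio of the 9. It had 484, 385 and 202 CPM in clones 21, 22 and 23 on fibronectin, 418, 306 and 192 CPM in the same clones untreated, and 6.17, 5.11 and 6.50 CPM in the WT lines. Even the lowest knockout library was far above the WT libraries, and clone 21 was highest and clone 23 lowest with and without fibronectin. Mean CD34 was 357 ± 143 CPM in KO on fibronectin, 305 ± 113 CPM in KO and 5.93 ± 0.724 CPM in WT (SD, n = 3 each). The log2 fold change over WT was 5.91 (SE 0.52, adjusted p = 8.78e-05) for KO on fibronectin and 5.68 (SE 0.51, adjusted p = 0.000129) for KO, 60.2 and 51.5 times the WT mean. The 95% intervals of these folds run from 25.3 to 143 and from 21.8 to 121, much wider than that of SELP in KO, 39.6 to 57.2. An antisense gene overlaps CD34.

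CD34 and PECAM1 are also carried by blood cells, and the leukocyte markers are given beside them. The summed level of 10 leukocyte genes was 33.0 to 35.5 CPM in KO on fibronectin, 27.9 to 29.2 CPM in KO and 17.5 to 18.4 CPM in WT, and most of it was CD68, a lysosomal protein. CD68 had 31.1 ± 2.12 CPM in KO on fibronectin, 26.1 ± 1.10 CPM in KO and 17.5 ± 0.388 CPM in WT (SD, n = 3 each). The 5 of 10 that could be tested, CD14, LYZ, CD68, ITGAM and ITGB2, rose in both comparisons, the 4 other than CD68 from a WT level under 1 CPM. Those 4 passed the filter on low counts only through the knockout libraries, so they could be called only as rises. PTPRC, the defining leukocyte gene CD45, had 9 counts over all 9 libraries, CD3E had 8 and AIF1 had 1.

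Among the members called against WT, ALCAM and MCAM were near the small end in fold change. ALCAM, the ligand of CD6 on T cells, had 101, 102 and 133 CPM in the clones on fibronectin, 111, 117 and 119 CPM in the untreated clones, and 184, 159 and 185 CPM in the WT lines. All knockout libraries lay below all WT libraries. Its log2 fold change over WT was -0.65 (SE 0.10, adjusted p = 0.000149) for KO on fibronectin and -0.60 (SE 0.10, adjusted p = 0.000335) for KO, so WT was 1.57 and 1.52 times as high. MCAM, the junctional molecule CD146, had 1359.8, 1469.5 and 1452 CPM in the clones on fibronectin, 1320.1, 1483 and 1470.3 CPM in the untreated clones, and 1093, 1156 and 999 CPM in the WT lines. Here too the knockout libraries and the WT libraries did not overlap, in the opposite direction to ALCAM. Over WT, MCAM had a log2 fold change of 0.40 (SE 0.07) for both KO on fibronectin (adjusted p = 0.000277) and KO (adjusted p = 0.000363), 1.32 times the WT mean. CBL overlaps MCAM on the opposite strand.

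In 8 of the 9 genes, all but SELE, the groups did not overlap in either comparison with WT. For scale, 28.2% of tested genes lay wholly higher and 33.3% wholly lower in KO than in WT, and 31.6% and 32.7% did so in KO on fibronectin. In the authors' deposited table for KO against WT the log2 fold changes had the same signs, with 5.44 for SELP, 4.96 for CD34, 1.90 for ICAM1 and -1.51 for VCAM1, and 0.08 for SELE with an adjusted p of 0.907.

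ICAM1 and ICAM2 were the members that rose on fibronectin once the clone was a term of the model. In KO on fibronectin against KO, 0 of the 9 members were called by edgeR without the clone in the model, where 0.00725% of the 13802 genes, a single gene, were called up and 0% down. Of the members 2, ICAM1 and ICAM2, passed 0.05 in edgeR before adjustment, as 22.3% of all tested genes did, and DESeq2 called ICAM2 among 987 genes. With the clone as a block, which the labels support because both groups hold the same 3 clones, 6.78% of 13257 genes were called, 4.97% up and 1.81% down, and 2 of the 9 members, ICAM1 and ICAM2, rose. ICAM1 had a log2 fold change of 0.32 (SE 0.12, adjusted p = 0.167) without the block and 0.29 (SE 0.07, adjusted p = 0.0192) with it. ICAM2 had 0.29 (SE 0.08, adjusted p = 0.0972) without the block and 0.27 (SE 0.07, adjusted p = 0.0328) with it.

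Within each clone both genes were higher on fibronectin. The log2 difference was 0.38, 0.36 and 0.21 for ICAM1 and 0.54, 0.23 and 0.12 for ICAM2 in clones 21, 22 and 23. For both genes the library groups on fibronectin lay wholly above the untreated ones, which held for 14.8% of tested genes, with 10.6% wholly below. With the block and without clone 21 ICAM1 was called and ICAM2 was not (adjusted p = 0.00171 and 0.117), and neither was called without clone 22 or without clone 23. In the authors' deposited table the log2 fold change on fibronectin was 0.27 for ICAM1 and 0.24 for ICAM2, with adjusted p of 0.0688 and 0.0854.

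The other 7 genes were not called on fibronectin, and their intervals bound the change. Without the block the log2 fold change of KO on fibronectin over KO was 0.04 for SELP (95% interval -0.14 to 0.22, adjusted p = 0.834) and 0.00 for PECAM1 (95% interval -0.13 to 0.13, adjusted p = 0.982). It was 0.00 for MCAM (95% interval -0.15 to 0.15, adjusted p = 0.991) and -0.05 for ALCAM (95% interval -0.27 to 0.17, adjusted p = 0.824). In this fit, which leaves out the pairing by clone, the bounds are wide for the genes that differ between clones or have few counts. They were -0.71 to 1.16 for CD34, -0.59 to 1.02 for VCAM1 and -1.0 to 1.14 for SELE. With the clone as a block the 95% intervals were narrower, 0.046 to 0.317 for CD34, -0.25 to 0.57 for VCAM1 and -0.34 to 0.50 for SELE. With the clone as a block CD34 had 0.18 (SE 0.07, adjusted p = 0.0833), and it was higher on fibronectin in all 3 clones, by 0.21, 0.33 and 0.07. The only gene of the table called without the block was TAGLN, the actin-binding protein transgelin, which is no adhesion molecule and is among the smooth muscle markers, at 25.9 CPM in KO on fibronectin and 11.2 CPM in KO.

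The clones themselves differed in 3 members. Each clone gave 1 library on fibronectin and 1 without, and an F test over the clones in edgeR, with treatment in the model, called CD34 (F = 109.9, adjusted p = 1.51e-09), SELE (F = 24.5, adjusted p = 0.000200) and VCAM1 (F = 14.7, adjusted p = 0.00432), against 3.79% of 13257 genes. Mean CD34 over both libraries of a clone was 451, 345 and 197 CPM in clones 21, 22 and 23, a 2.29-fold span. SELE had 2.86, 1.69 and 0.839 CPM, a 3.41-fold span, in the same order of clones as CD34. VCAM1 had 2.56, 0.975 and 1.96 CPM, lowest in clone 22.

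For CD34, SELE and VCAM1 the order of clones was the same on fibronectin as without it, a match that also held for ICAM1, ALCAM and MCAM, whose clones were not called apart. SELE was 1.68, 1.02 and 0.602 times the WT mean in clones 21, 22 and 23 on fibronectin and 1.74, 1.0 and 0.402 times untreated, so its direction against WT depended on the clone. CD34 was 81.6, 64.9 and 34.0 times the WT mean on fibronectin and 70.5, 51.6 and 32.3 times untreated, above WT in every clone. SELP and PECAM1 were not called between clones (adjusted p = 0.194 and 0.953). The SELE and VCAM1 calls were lost without either library of clone 23 (adjusted p = 0.181 and 0.0959 for SELE, 0.140 and 0.143 for VCAM1), and DESeq2 did not call VCAM1 (adjusted p = 0.323). Without either library of clone 21 the same test called 6 of the 9 members, so the number of members that differ between clones is not firm.

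**Figure D3:**
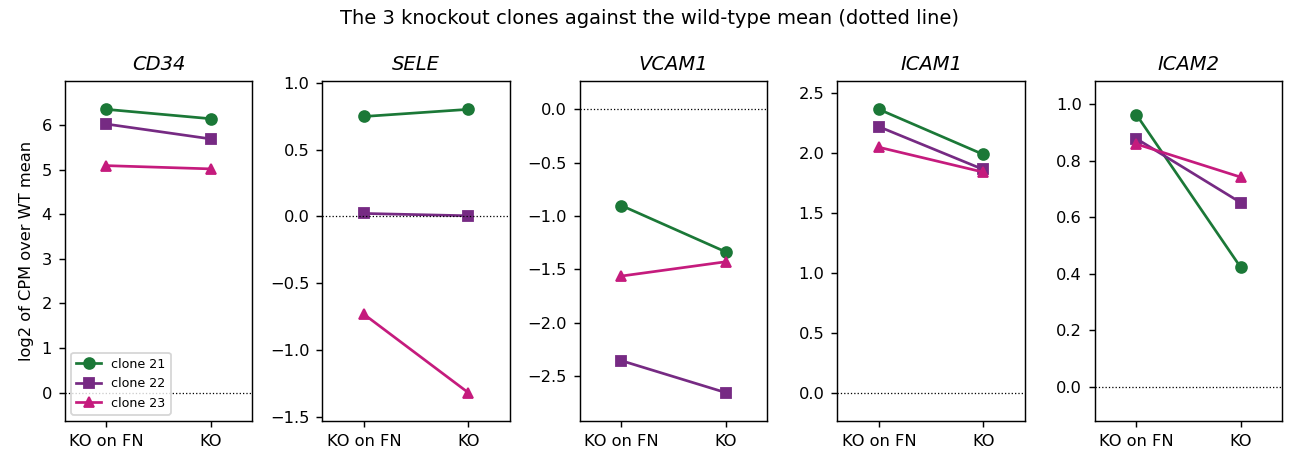
Log2 of the CPM of each knockout library over the WT mean for CD34, SELE, VCAM1, ICAM1 and ICAM2, on fibronectin (left) and untreated (right). Each line joins the same clone, and the dotted line at 0 is the WT mean. CD34, SELE and VCAM1 keep their order of clones on both sides, and ICAM1 and ICAM2 are higher on fibronectin in all 3 clones.

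Levels can be set between genes only per gene length, in the deposited FPKM, fragments scaled by transcript length and library size. In KO on fibronectin ICAM2 led with 395 FPKM, ahead of MCAM with 356, PECAM1 with 192, CD34 with 105 and ICAM1 with 35.7 FPKM. SELP with 19.1 and ALCAM with 19.0 FPKM overlapped over their 3 libraries, as did VCAM1 with 0.507 and SELE with 0.391 FPKM at the bottom. In KO the order by FPKM was MCAM with 360 ± 22.5 and ICAM2 with 328 ± 35.7, whose ranges overlapped, then PECAM1 with 195, CD34 with 91.4 and ICAM1 with 29.1, and ALCAM with 19.9 and SELP with 18.9, which overlapped. VCAM1 with 0.447 and SELE with 0.381 FPKM closed the list and overlapped too.

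WT cells had another order. There MCAM led with 278 FPKM, then came ICAM2 with 218, PECAM1 with 85.5, ALCAM with 30.6 and ICAM1 with 7.92 FPKM. CD34 with 1.80 and VCAM1 with 1.47 FPKM overlapped, and so did SELP with 0.401 and SELE with 0.368 FPKM. P-selectin mRNA was thus level with E-selectin mRNA in WT and with ALCAM mRNA in both knockout groups.

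**Figure D4:**
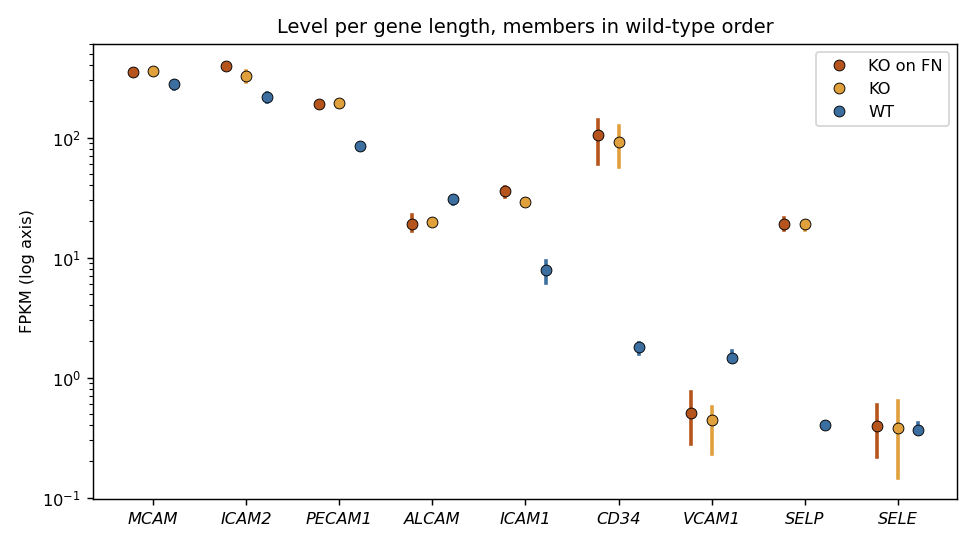
Deposited FPKM of the 9 genes on a log axis, in the order of their WT level. Points are means of 3 libraries for KO on fibronectin (KO on FN), KO and WT, and bars run over the lowest and highest library. CD34 and SELP move up the order in both knockout groups, VCAM1 and ALCAM move down, and SELE stays near 0.4 FPKM on average.

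The summed FPKM of the 9 genes was 1150.1, 1148 and 1069 in KO on fibronectin, 1014, 1064 and 1048 in KO, and 628, 664 and 579 in WT. Every knockout library carried more of this mRNA than every WT library. CD34 made up 9.27 ± 3.36% of the sum in KO on fibronectin, 8.81 ± 3.46% in KO and 0.291 ± 0.0519% in WT (SD, n = 3 each). MCAM held 31.7 ± 2.59% in KO on fibronectin, 34.5 ± 1.36% in KO and 44.5 ± 0.679% in WT (SD, n = 3 each). ICAM2 held 35.2 ± 1.06% in KO on fibronectin, 31.4 ± 2.87% in KO and 34.9 ± 0.581% in WT (SD, n = 3 each), the most even share of these 3 genes.

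Among the members themselves, the closest pair was ICAM2 and MCAM. Likeness was the root mean square difference of log2 CPM, each gene centred on its mean, over the 9 libraries. The log2 CPM carried a prior count of 2, which damps ratios of genes near 0. Likeness was 0.22 for that pair, 0.26 for ICAM2 and PECAM1 and 0.36 for CD34 and SELP. These values describe 9 libraries of which 6 share 3 clones. They are not scaled to the size of a gene's change, so genes that change little lie close whatever their direction. ALCAM and MCAM, which moved in opposite directions against WT, stood at 0.51. ICAM1 and ICAM2, with the same order of groups, stood at 0.64. Among 10204 other genes with at least 5 CPM, the nearest to SELP were TSPAN7 (0.06), LYPD5 (0.19) and AQP1 (0.30), the gene of the water channel aquaporin-1. AQP1 had 13.1 CPM in KO on fibronectin, 13.8 CPM in KO and 0.249 CPM in WT. LYPD5 had 7.88 CPM in KO and 0.0689 CPM in WT, and TSPAN7 had 15.3 and 0.274 CPM. With WT values so near 0, the likeness of these 3 genes to SELP rests in part on the prior count. The nearest to CD34 were SELP, TSPAN7 (0.36) and AQP1 (0.42).

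ICAM1 was nearest to CXCL2 (0.09), a neutrophil chemokine, with 19.9 CPM in KO on fibronectin, 16.6 CPM in KO and 4.28 CPM in WT, and then to NDRG1 (0.12) and MN1 (0.16). ICAM2 was nearest to PML (0.04), MARCH2 (0.05) and SYNGR2 (0.05), and PECAM1 to CD59 (0.04), a complement inhibitor, GRK5 (0.05) and LRRC1 (0.06). MCAM lay nearest to FGFR1 (0.02), ECE1 (0.03) and CLSTN1 (0.05), and ALCAM to DEPDC1B (0.06), CENPK (0.07) and PHF17 (0.07). The low genes had looser neighbours: VCAM1 had G0S2 (0.15), PNMA2 (0.29) and CLIP3 (0.32), and SELE had EFEMP1 (0.33), CCL2 (0.35) and IL27RA (0.38). CCL2, the monocyte chemokine, had 21.4 CPM in KO on fibronectin, 20.3 CPM in KO and 24.7 CPM in WT.

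The genes around these molecules were counted in lists by role. The counts of every list below are to be read against all tested genes. Of these 29% rose and 29.6% fell in KO on fibronectin against WT, and 23% rose and 27% fell in KO against WT. Of 26 other selectins and adhesion molecules 16 could be tested. In KO on fibronectin against WT 9 rose, 3 fell and 4 were not called, and in KO against WT 7 rose, 3 fell and 6 were not called. PODXL, a sialomucin related to CD34, had 595 CPM in KO against 279 CPM in WT (log2 fold change 1.09, SE 0.07), and CD47, the ligand of SIRP-alpha, had 117 CPM against 53.3 CPM (1.13, SE 0.09). F11R, the junctional molecule JAM-A, had 152 CPM in KO against 83.3 CPM in WT (0.86, SE 0.07). PVR, the ligand of DNAM-1, fell to 144 CPM in KO, against 303 CPM in WT (-1.07, SE 0.05).

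Weibel-Palade bodies store P-selectin, and their genes split. All 23 listed genes were tested: 11 rose and 4 fell in KO on fibronectin, and 12 rose and 6 fell in KO, against WT. That was 47.8% up and 17.4% down in KO on fibronectin, beside 29% and 29.6% of all tested genes. In KO it was 52.2% up and 26.1% down, beside 23% and 27%. VWF, the main cargo and the protein that shapes the granule, was named after its values were seen, at 2974 ± 434 CPM in KO on fibronectin, 2686 ± 208 CPM in KO and 325 ± 48.6 CPM in WT (SD, n = 3 each; KO log2 fold change 3.04, SE 0.13, adjusted p = 5.17e-09). VAMP8, a fusion SNARE, had 101 CPM in KO against 19.3 CPM in WT (log2 fold change 2.38, SE 0.09), and S100A10, the partner of annexin A2, 627 CPM against 186 CPM (1.75, SE 0.07). Other parts of the granule fell: RAB3B, a secretory GTPase, had 6.57 CPM in KO against 78.3 CPM in WT (-3.58, SE 0.14), and the cargo ANGPT2, angiopoietin-2, had 7.09 CPM against 34.2 CPM (-2.27, SE 0.11). IL8, a stored chemokine, also fell and was likewise named after its values were seen, at 3.95 ± 1.03 CPM in KO against 39.1 ± 3.61 CPM in WT (SD, n = 3 each). Thus SELP rose with the VWF mRNA, while ANGPT2 and IL8, stored in the same kind of granule, fell.

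Cytokine receptors and NF-kB genes, which act on SELE, VCAM1 and ICAM1, did not move one way. Of 30 tested genes 12 rose and 13 fell in KO on fibronectin, and 10 rose and 13 fell in KO, against WT. In KO that was 33.3% up and 43.3% down, beside 23% and 27% of all tested genes. IRF1, an interferon-induced factor that can act on VCAM1 and ICAM1, had 28.0 CPM in KO against 12.2 CPM in WT (log2 fold change 1.20, SE 0.08), and the TNF receptor gene TNFRSF1B 67.5 CPM against 33.4 CPM (1.01, SE 0.07). IRF2 rose by less (0.59, SE 0.07). TNFAIP3, the NF-kB feedback inhibitor A20, fell to 2.79 CPM in KO, against 9.53 CPM in WT (-1.77, SE 0.15).

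Of 19 endothelial transcription factors 9 rose and 5 fell in KO on fibronectin, and 9 rose and 4 fell in KO, against WT. KLF2 and KLF4, flow-responsive factors known to damp the cytokine induction of adhesion molecules, had log2 fold changes of 3.24 (SE 0.13) and 3.05 (SE 0.10) in KO over WT. LMO2, a partner of GATA and TAL1, had 74.8 CPM in KO against 15.0 CPM in WT (2.31, SE 0.09), and FLI1, an ETS factor, 286 CPM against 149 CPM (0.94, SE 0.05). SELP, CD34, PECAM1 and ICAM2 rose beside these factors, and a link between them was not tested.

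**Figure D5:**
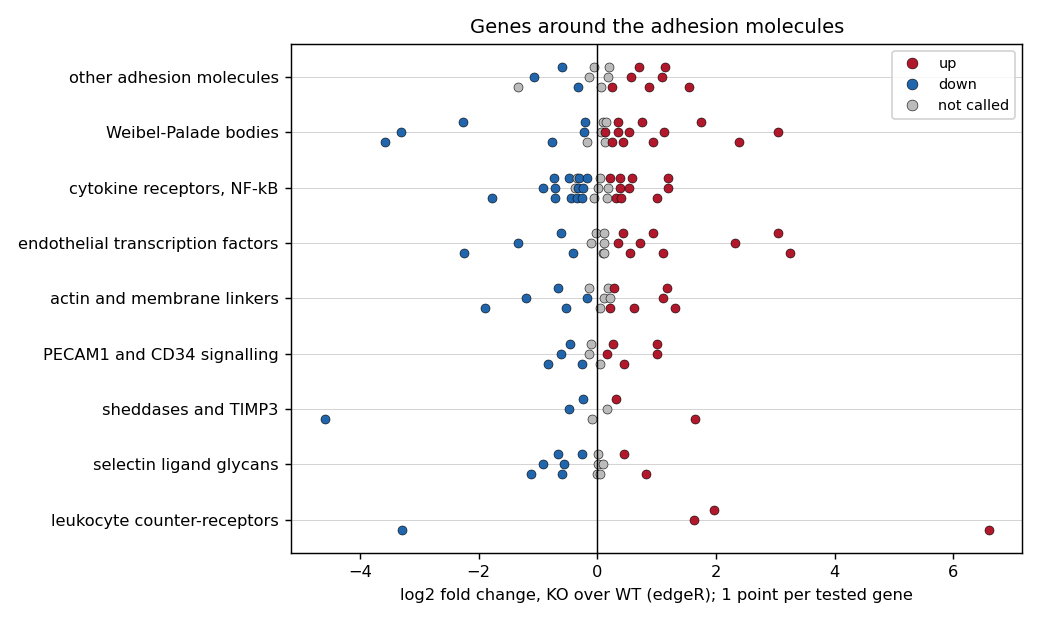
Log2 fold change of KO over WT from edgeR for each tested gene of 9 lists around the adhesion molecules, 1 point per gene. Red points rose, blue points fell and grey points were not called at an adjusted p of 0.05. Every list holds genes on both sides of 0, with 12 up and 6 down among the Weibel-Palade genes and 10 up and 13 down among cytokine receptors and NF-kB genes. Of all tested genes 23% rose and 27% fell.

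Linkers that tie ICAM and VCAM molecules to actin and the membrane gave 8 genes up and 5 down of 16 in KO on fibronectin, and 6 up and 5 down in KO, against WT. In KO that was 37.5% up and 31.25% down, beside 23% and 27% of all tested genes. EZR, the cortical linker ezrin, had 296 CPM in KO against 132 CPM in WT (log2 fold change 1.17, SE 0.05), CAV1, caveolin-1, 1725 CPM against 799 CPM (1.11, SE 0.06), and RHOA, a GTPase, 1206 CPM against 784 CPM (0.62, SE 0.06). TRIO, an exchange factor, fell to 101 CPM in KO, against 231 CPM in WT (-1.20, SE 0.11). Of 12 tested signalling partners of PECAM1 and CD34, 3 rose and 5 fell in KO on fibronectin, and 5 rose and 4 fell in KO. The kinase genes LYN (1.0, SE 0.06) and FYN (0.44, SE 0.06) and the VEGF receptor gene KDR (1.0, SE 0.09) rose in KO, and JUP, plakoglobin, fell (-0.83, SE 0.09). The falls in KO were fewer with some libraries left out: without WT line 1 they came to 3 linkers and 1 signalling partner, and 3 linkers fell without WT line 2, KO clone 21 or KO clone 23. Without clone 21 on fibronectin, 5 signalling partners rose and 4 fell in KO on fibronectin against WT.

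Of 7 tested sheddases and their partners 2 rose and 3 fell in each comparison with WT, but 1 fell in KO without WT line 1 or KO clone 21. In KO with all libraries that was 28.6% up and 42.9% down, beside 23% and 27% of all tested genes. ADAM15 had 562 CPM in KO against 180 CPM in WT (log2 fold change 1.64, SE 0.09), and ADAM12 fell to 0.0951 CPM in KO, against 2.42 CPM in WT (-4.60, SE 0.33). ADAM12 passed the filter on low counts only through the WT libraries, so it could be called only as a fall. The iRhom genes RHBDF1 (0.32, SE 0.08) and RHBDF2 (-0.47, SE 0.15) moved apart. ADAM17, a sheddase of VCAM-1, was named after its values were seen, at 59.1 CPM in KO and 63.2 CPM in WT (-0.10, adjusted p = 0.253).

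Of 13 tested genes for the glycans that selectins bind, 3 rose and 6 fell in KO on fibronectin, and 2 rose and 6 fell in KO, against WT. GCNT1, which branches O-glycans, fell to 12.7 CPM in KO, against 27.5 CPM in WT (log2 fold change -1.11, SE 0.09), and GALNT1, which starts them, to 475 CPM against 718 CPM (-0.59, SE 0.05). The tyrosine sulfotransferase genes split, with TPST2 at 0.82 (SE 0.08) and TPST1 at -0.91 (SE 0.10). Of 10 leukocyte counter-receptors 4 were tested, and 3 rose and 1 fell in each comparison. The 3 that rose were ITGAM, ITGB2 and SELPLG. They passed the filter on low counts only through the knockout libraries, so they could be called only as rises. ITGAM, a subunit of Mac-1, had 8 to 18 counts per library in KO on fibronectin, 5 to 16 in KO and 0 in WT. With WT set to 3 counts over the group, the ratios of means were 14.6 and 12.5. These ratios depend on the chosen floor and do not allow for the spread of the knockout counts. ITGB2 and SELPLG, the genes of the shared beta-2 integrin subunit and of PSGL-1, stayed under 1 CPM on average in KO. ITGA4, a subunit of VLA-4 that other cells also carry, fell to 5.52 ± 4.16 CPM in KO, against 53.3 ± 6.15 CPM in WT (SD, n = 3 each; -3.29, SE 0.57).

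The listed genes were also compared on fibronectin. In KO on fibronectin against KO, edgeR without the block called 0 of the 140 listed genes that were tested, 40 of them had an unadjusted p under 0.05, where 22.3% of all tested genes did, and DESeq2 called 7 up and 6 down. With the clone as a block 6 rose and 5 fell, beside 4.97% and 1.81% of all genes, but 3 and 1 without clone 21, 6 and 2 without clone 22, and 0 and 0 without clone 23. Those that rose were the adhesion molecule genes BCAM (log2 fold change 0.63, SE 0.13, adjusted p = 0.0149) and ICAM3 (0.38, SE 0.11), the adaptor gene TRAF2 (0.42, SE 0.11), IKBKG, which encodes the NEMO subunit of the IKK complex (0.42, SE 0.12), FLNA, the actin crosslinker filamin A (0.27, SE 0.07), and the sheddase gene ADAM15 (0.26, SE 0.07). ANGPT2 fell most, to 4.43 CPM in KO on fibronectin, against 7.09 CPM in KO (log2 fold change -0.70, SE 0.13, adjusted p = 0.0110). The others that fell were ELF1, an ETS factor (-0.25, SE 0.07), the sheddase genes ADAM10 (-0.28, SE 0.08) and ADAM9 (-0.23, SE 0.07), and GALNT1 (-0.22, SE 0.06).

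Markers of other cell types moved as well. Smooth muscle and pericyte genes summed to 58.0 to 69.0 CPM in KO on fibronectin, 38.0 to 46.8 CPM in KO and 171 to 192 CPM in WT. Of the 4 tested, RGS5, TAGLN and SMTN fell in both comparisons with WT and ACTA2 was not called. RGS5 had 4.21 CPM in KO on fibronectin, 5.42 CPM in KO and 85.5 CPM in WT, and ACTA2 had 4.67, 4.52 and 3.81 CPM. Fibroblast genes summed to 0.288 to 0.740 CPM in KO on fibronectin, 0.153 to 0.671 CPM in KO and 1.18 to 1.33 CPM in WT. Epithelial genes, mostly simple keratins, summed to 542 to 636 CPM in KO on fibronectin, 491 to 523 CPM in KO and 774 to 819 CPM in WT. The lower sum in the knockout groups was that of KRT7, at 232 CPM in KO on fibronectin, 212 CPM in KO and 597 CPM in WT. Of the 4 epithelial genes tested KRT7 fell, and the other three, KRT18, KRT8 and EPCAM, rose in both comparisons with WT, KRT18 to 327 CPM in KO on fibronectin and 279 CPM in KO, against 181 CPM in WT. Their part in the results above was not tested.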

How the data were processed

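Poly-A RNA libraries were made with a stranded TruSeq kit, per the labels' protocols. STAR, HTSeq and the hg19 (GRCh37) build are named in the submitters' processing notes, without versions, and how the counting treated strand is not given in the sources used here. Raw counts and FPKM per gene symbol were deposited for 9 libraries, with 0 columns left without a sample. The FPKM matched counts over a length per gene within 0.0433% at the 99th percentile over 9951 genes. For each comparison the authors deposited their log2 fold changes with standard errors, p-values and adjusted p-values, and which program gave these is not stated in the labels. Their log2 fold changes had the same sign as those computed here for 4014 of 4014, 4620 of 4620 and 753 of 753 genes with a log2 change over 0.5 here.

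Counts were tested with edgeR 4.0.16 in R 4.3.3 (quasi-likelihood F test, robust dispersion, TMM, filterByExpr with a minimum count of 10 and total of 15, 1 fit over 9 libraries), with Benjamini-Hochberg adjustment over 13802 genes. Alternatives were DESeq2 1.42.0, other scalings and filters, single libraries left out, and the clone as a block. KO and KO on fibronectin hold the same clones per the labels, and deviations from group means correlated over 9073 genes at r = 0.32, 0.45 and 0.52 within clones, against -0.47 to 0.05 between clones. Clone numbers come from the sample titles. The tests were checked on simulated data.

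No pair of replicates matched within counting error (chi-square per degree of freedom 5.37 to 21.8). Promoters came from the RefSeq table on GRCh38.p14, where 7 of 9 members matched, and ICAM2 and PECAM1 had no entry used here. Symbols are as the files give them, some of them older names. Members and lists were chosen with earlier results of these data known. Named were all members, PDCD10, up to 4 genes per list with the smallest p among those called in KO against WT, any listed gene called on fibronectin, and the 3 genes most like each member. Some listed genes are not reported here by name.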

Additional observations from a re-analysis of the deposited data

How the results depend on the processing

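The 6 rises and 2 falls against WT kept their calls and directions under all 16 alternatives in both comparisons. In those, SELP ran from 5.53 to 5.70 and CD34 from 5.41 to 6.20 on the log2 scale. SELE was never called; it turned to -0.50 in KO and -0.33 in KO on fibronectin without the clone 21 library of the group, with ranges over single libraries left out of -0.50 to 0.45 and -0.33 to 0.45. No scaling moved the median of all genes by over 0.1.

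Fibronectin against untreated KO depended on the model. Without the replicate block 1 gene was called, against 899 with it, 987 by DESeq2, 383 with no filter on low counts, 0 with only those groups in the fit and 0 to 488 with single libraries left out. Members called up were 0 without the block, 2 with it, 1 by DESeq2 (ICAM2) and 1 with no filter. Chosen after seeing the data, the block with RLE scaling called 686 genes and 2 members, and the block without clones 21, 22 and 23 in turn called 526, 837 and 0 genes and 2, 0 and 0 members. The 2 without clone 21 were ICAM1 and CD34 (0.20, adjusted p = 0.0379). The block changed no other member's call.

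Values near 0 on fibronectin changed sign, none of them called. MCAM was -0.018 with RLE scaling and with DESeq2, -0.020 with total counts, -0.021 with only those groups and with the block, -0.0071 with upper-quartile scaling, -0.012 with a 1 CPM filter, -0.0089 with the block and RLE, and -0.016, -0.0033 and -0.013 with the block without clones 21, 22 and 23. PECAM1 was -0.018, -0.018, -0.020, -0.021, -0.021, -0.0065, -0.012 and -0.0098 in the same order up to the block with RLE, and -0.014 and -0.044 with the block without clones 21 and 22. With the block SELE was -0.053 without clone 23 and SELP -0.025 without clone 22. Over single libraries left out the ranges were -0.060 to 0.032 for MCAM, -0.031 to 0.016 for PECAM1, -0.40 to 0.63 for SELE, -0.042 to 0.098 for SELP, -0.19 to 0.48 for VCAM1, -0.078 to 0.51 for CD34 and -0.21 to 0.013 for ALCAM.

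For the clones, 502 genes and 3 members were called, against 263 genes by DESeq2, 825 with no filter, and 64 to 2351 genes and 1 to 6 members with single libraries left out. In KO against WT most list counts stayed within 1.5 times, but rises among the counter-receptors ran from 0, with the 1 CPM filter that left those genes untested, to 4 (3 as reported), and falls ran from 1 to 4 among the signalling partners (4), 1 to 3 among the sheddases (3) and 3 to 5 among the linkers (5). Against WT, KO on fibronectin gave 0 to 4 rises among the counter-receptors (3) and 3 to 5 among the signalling partners (3). The cause of these shifts was not tested. Low counts limit SELE and VCAM1, and 3 libraries per group limit all tests.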
